A study of Mus musculus with 4 samples.

Results

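The mRNA levels of 9 Polycomb group genes were examined in mouse embryonic fibroblasts (MEFs) with and without Cyclin G1 and Cyclin G2. The genes were Ezh1, Ezh2, Eed and Suz12 of Polycomb repressive complex 2 (PRC2) and Bmi1, Rnf2, Cbx2, Cbx7 and Cbx8 of Polycomb repressive complex 1 (PRC1). They were found as the probes, other than control spots, whose gene name in the files was that of a member, and they were 9 of 31806 gene names on the array. The choice was made for their role as regulators of Hox and Cdkn2a silencing and its rule used no measured value, although earlier results of these data were known. Together they had 12 probes, with 3 for Ezh1, 2 for Bmi1 and 1 for each of the other 7 genes.

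Total RNA of 4 MEF preparations, all from C57BL/6J embryos and collected in logarithmic growth, was labelled with Cy3 and hybridised to 1 single-color Agilent array each. The labels name the preparations CycG2-/- (here the G2KO-labelled array), CycG2+/+ (the G2WT-labelled array), CycG1-/- CycG2-/- (the DKO array), and the wild type that goes with the double knockout (the DKO-WT array). The null alleles are those of whole-animal knockout mice, no agent was given, and G1KO MEFs were not analysed here. All 4 arrays lay on 1 slide and were read in 1 scan. With 1 array per group there was no replicate of any genotype and no test between genotypes, and a difference between 2 arrays is a difference between 2 preparations. A level is the background-subtracted signal of a probe divided by the 75th percentile of its array, and levels of different probes cannot be compared with each other. The error given with a ratio is the scanner software's own error of the 2 signals, about 0.20 on the log2 scale. It is the software's estimate for the spots and does not cover the spread between cultures. For 1 signal its median was 0.144 to 0.145 on every array, nearly a constant. The median SD between spots of a probe was 0.0752 to 0.122, over 399 probes with several spots. Differences within or beyond the error are thus read against a nearly fixed cut-off.

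Polycomb proteins keep genes of other developmental states silent. PRC2 places methyl groups on lysine residues of histone H3, with Ezh1 or Ezh2 as the enzyme and Eed and Suz12 as the subunits it needs to be active. PRC1 attaches ubiquitin to histone H2A through Rnf2 (Ring1b) or Ring1, each paired with a PCGF protein such as Bmi1, and CBX proteins such as Cbx2, Cbx7 and Cbx8 bind the methylated histone. In fibroblasts the complexes are known for holding Hox genes silent outside their proper position along the body and for restraining Cdkn2a, the gene of p16INK4a and p19ARF, whose rise accompanies the arrest of cultured MEFs.

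The labels were checked first, since the ratios depend on them. Ccng1 was well above background on all arrays but the DKO array, where its level was at least 228-fold lower than on the DKO-WT array (a log2 limit of -7.83, and -4.84 at its smallest under the other scalings and background correction). Ccng1 was also 4.78-fold lower on the G2KO-labelled and 5.68-fold lower on the DKO-WT array than on the G2WT-labelled array, while Ccng2 differed little in either knockout comparison (log2 ratios of -0.19 and -0.38). Xist, En2, Sox2 and Sox6 were high on the G2WT-labelled array and low or dim on the G2KO-labelled array, the reverse of the direction that the study describes for G2KO, so every signed value of that comparison stands for the arrays as labelled and would change sign if their labels were exchanged. The G2KO-labelled array was closer to the DKO-WT array (SD of log2 ratios 0.535 over 24197 probes well above background on all arrays) than the WT arrays were to each other (SD of 1.01). In each of the 3 comparisons the genes with a ratio were 22137 to 22881.

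Of the 9 members, 8 were well above background on all 4 arrays, and Cbx7 was so on none. By the same measure, 19466 of the 31806 gene names were well above background on all arrays. Levels above the 75th percentile of the array were found for 6 members on every array, and the share of all genes above it was not counted. No member differed at least 2-fold in either knockout comparison. Of 22790 genes compared between the G2KO-labelled and the G2WT-labelled array, 8.74% were at least 2-fold higher and 8.37% at least 2-fold lower, against 0 of 8 members in either direction. For DKO against its WT these shares were 10.6% and 9.61% of 22881 genes, again with 0 of 8 members in either direction. Between the WT arrays 11.7% of genes were at least 2-fold higher on the DKO-WT array and 9.92% at least 2-fold lower, and 1 of 8 members, Ezh2, was among the lower ones. With 8 members, these shares stand for less than 1 gene in each direction.

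Among the PRC2 genes, Ezh2, the methyltransferase best known from dividing cells, had the widest range. Its probe lies at chr6:47480307-47480366 on mm9, the build of the probe positions given here, on the minus strand and at base 2558 of the transcript. Its level was 2.70 on the G2WT-labelled array, 1.45 on the G2KO-labelled array, 1.17 on the DKO-WT array and 1.04 on the DKO array, the last pair lying within the software's error of each other. The G2WT-labelled array stood apart from the other 3, which spanned 1.04 to 1.45. The log2 ratio was -0.90 (software error 0.20) for the G2KO-labelled against the G2WT-labelled array, a 1.86-fold difference that 20.4% of all genes matched or passed in either direction. For DKO against its WT it was -0.16 and smaller than the error. Between the WT arrays it was -1.21, or 2.31-fold, the widest of the 3 comparisons with the arrays as labelled. With the WT arrays exchanged between the comparisons, Ezh2 was higher by 0.31 on the G2KO-labelled array and lower on the DKO array, with a log2 ratio of -1.37. If the G2KO and G2WT labels were exchanged, the WT arrays would differ by that 0.31, less than the 0.90 of the G2KO comparison.

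Ezh1, the related methyltransferase that is expressed in resting and differentiated cells as well, ran in the opposite order. Its level by the main probe (chr11:101052430-101052489, minus strand) was 2.41 on the DKO array, 1.96 on the DKO-WT array, 1.75 on the G2KO-labelled array and 1.41 on the G2WT-labelled array, and the middle pair did not differ beyond the software's error. The second probe, which lies upstream in the same transcript (chr11:101052680-101052739), gave the same order with 0.957, 0.828, 0.664 and 0.580. The log2 ratios of the main probe were 0.31 and 0.30 in the G2KO and DKO comparisons and 0.48 between the WT arrays, those of the second probe 0.20, 0.21 and 0.51. The remaining probe of Ezh1, which lies farther upstream (chr11:101054534-101054593), was dim on the G2KO-labelled and DKO-WT arrays and between 0.0148 and 0.0232 on the others, and gave a log2 ratio of at most -0.64 in the G2KO comparison and at least 0.95 in the DKO comparison. It therefore differed in sign from the other probes of Ezh1 in the first of these comparisons. Set against Ezh2 within each array, Ezh1 was 2.31-fold higher on the G2KO-labelled array, 3.22-fold higher on the DKO-WT array and 4.43-fold higher on the DKO array than on the G2WT-labelled array.

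Eed, which binds the methylated histone tail and activates the enzyme (probe at chr7:97103264-97103323, minus strand), was highest on the G2WT-labelled array at 7.48, followed by the DKO-WT array at 5.63, the G2KO-labelled array at 5.21 and the DKO array at 3.84. Its log2 ratios were -0.52 in the G2KO comparison, -0.55 for DKO against its WT and -0.41 between the WT arrays. Each was 2.01 to 2.70 times the software's error, and the middle pair of arrays did not differ beyond it. Suz12, the scaffold subunit of PRC2 (probe at chr11:79847251-79847310, plus strand), was at 1.97 on the G2WT-labelled array, 1.46 on the G2KO-labelled array, 1.25 on the DKO array and 1.17 on the DKO-WT array. It was 1.35-fold lower on the G2KO-labelled than on the G2WT-labelled array and 1.68-fold lower on the DKO-WT array, whereas DKO and its WT were within the error (log2 ratio of 0.09). At the scaling used, Ezh2, Eed and Suz12 thus shared the G2WT-labelled array as their highest and differed in the order of the other 3. Without scaling, the log2 ratio of Ezh2 in the G2KO comparison was -0.40, while those of Eed (-0.03) and Suz12 (0.06) were smaller than the error.

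**Figure D1:**
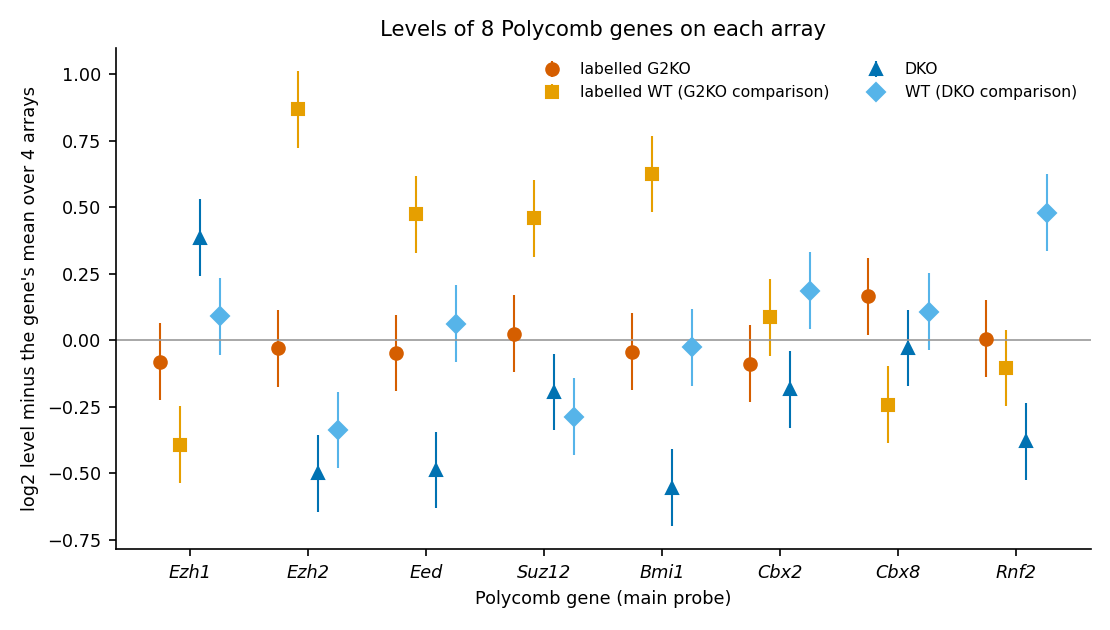
The log2 level of each of the 8 measured members (main probe) on each of the 4 arrays, minus the gene's mean over the arrays; colour and shape mark the array and bars are the software's error of 1 signal. At the scaling used, Ezh2, Eed, Suz12 and Bmi1 are highest on the G2WT-labelled array, Ezh1 is highest on the DKO array, and Cbx2 and Cbx8 stay within 1.33-fold over all arrays.

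The promoters of Ezh2 and Suz12 are shown because they hold letters of the E2F motif, the binding sequence of factors that drive genes of DNA replication. Promoter sequences were those of RefSeq on GRCm38.p6, from 250 bases before to 50 after the start, and 8 of the 9 members matched an entry; Cbx2 had none in the table. The letters searched were TTTCCCGC, TTTCGCGC, TTTGCCGC and TTTGGCGC on both strands, which 2.26% of 32851 promoters held and 2 of 8 member promoters did. Capitals mark the match, which starts at base 4 after the start in Ezh2 (chr6:47595011-47595150, minus strand, from 120 bases before the start to 20 after it) and at 219 bases before the start in Suz12 (chr11:79992856-79992975, plus strand, 250 to 131 bases before it).
Ezh2: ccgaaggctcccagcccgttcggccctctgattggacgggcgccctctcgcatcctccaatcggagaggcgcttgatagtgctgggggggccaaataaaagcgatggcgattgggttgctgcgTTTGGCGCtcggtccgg
Suz12: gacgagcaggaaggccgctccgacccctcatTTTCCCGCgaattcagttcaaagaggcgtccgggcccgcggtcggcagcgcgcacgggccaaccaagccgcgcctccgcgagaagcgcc
The 8 promoters had a GC content of 54.7% to 72.7% and 17 to 41 CG dinucleotides in 300 bases, where the medians over all promoters were 52.7% and 7. These letters describe the windows only. At the scaling used, both genes were highest on the G2WT-labelled array, as were Eed and Bmi1, whose windows hold no match. Without scaling, Suz12 was slightly higher on the G2KO-labelled array (log2 ratio of 0.06).

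Of the PRC1 genes, Bmi1, the PCGF subunit known for repressing Cdkn2a, was measured by a pair of probes in the same transcript, the main at chr2:18607531-18607590 and the other at chr2:18607987-18608046 on the plus strand. The main probe read 5.13 on the G2WT-labelled array, 3.27 on the DKO-WT array, 3.23 on the G2KO-labelled array and 2.27 on the DKO array, and the other probe read 1.92, 1.34, 1.06 and 0.730 in the same order of arrays. Both probes put the G2WT-labelled array highest and the DKO array lowest, and with the WT arrays exchanged the main probe gave log2 ratios of -0.02 for the G2KO-labelled and -1.18 for the DKO array. The log2 ratios were -0.67 and -0.86 by the main and the other probe in the G2KO comparison, -0.53 and -0.88 for DKO against its WT, and -0.65 and -0.52 between the WT arrays. By the main probes, Bmi1 was the member with the widest range over the arrays after Ezh2, at 2.27-fold. That range was matched or passed by 28.8% of 19466 genes well above background on all arrays. The other probe of Bmi1 ranged over 2.64-fold, more than the 2.58-fold of Ezh2.

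Rnf2, the ubiquitin ligase of PRC1 (probe at chr1:153316987-153317046, minus strand), had the largest ratio of any member for DKO against its WT. Its level was 1.97 on the DKO-WT array and 1.09 on the DKO array, a log2 ratio of -0.86 (software error 0.20), or 1.81-fold, that 24.5% of all genes matched or passed. The G2KO-labelled array at 1.42 and the G2WT-labelled array at 1.32 did not differ beyond the error. The WT arrays differed by 0.58 on the log2 scale, with the DKO-WT array the higher. Set against the G2WT-labelled array in place of its own WT, the DKO array was lower in Rnf2 by only 0.28 on the log2 scale.

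Of the members, the CBX readers Cbx2 and Cbx8 varied least. Cbx2 (probe at chr11:118892363-118892422, plus strand) read 0.556 on the DKO-WT array, 0.519 on the G2WT-labelled array, 0.459 on the G2KO-labelled array and 0.430 on the DKO array, and no neighbours in that order differed beyond the software's error. Cbx8 (chr11:118899777-118899836, minus strand) read 0.507 on the G2KO-labelled array, 0.487 on the DKO-WT array, 0.443 on the DKO array and 0.382 on the G2WT-labelled array, which alone lay beyond the error from its neighbour. Their whole ranges were 1.29-fold and 1.33-fold, and 88.9% and 85.9% of all genes had at least that range. Cbx7, a reader known for extending the lifespan of fibroblasts (probe at chr15:79746240-79746299, minus strand), was not well above background on any array, with levels of 0.00206 to 0.00301, so its probe gave no ratio.

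The promoter of Bmi1 is shown as that of the PRC1 member with the widest range. It holds CACGTG, the E-box letters bound by Myc-like factors, which were searched on both strands and found in 7.15% of all promoters and in 2 of 8 member promoters, Bmi1 and Cbx8. The window runs over chr2:18676768-18676887 on GRCm38.p6, plus strand, 250 to 131 bases before the start, and capitals mark the match.
Bmi1: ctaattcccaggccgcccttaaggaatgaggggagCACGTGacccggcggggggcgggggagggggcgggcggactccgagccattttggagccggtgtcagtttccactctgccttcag
Of other promoter letters, CCAAT was held by 5 of 8 member promoters against 37.4% of all and GGGCGG by 5 of 8 against 35.7%, again on both strands and with overlapping matches of GGGCGG in Bmi1 counted. Cbx8, with the same E-box letters as Bmi1, had its lowest level on the array where Bmi1 had its highest. A link between promoter letters and levels was not tested.

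Seen by comparison, the members spread over the middle of the distribution of all genes. Their median log2 ratio was -0.30 in the G2KO comparison, beside -0.17 for all genes compared, -0.27 for DKO against its WT beside 0.03, and -0.16 between the WT arrays beside -0.08. Without scaling of the arrays the medians of the members in the G2KO and WT comparisons were 0.19 and 0.09, with all genes at 0.33 and 0.17. Relative to the median of all genes, the members lay lower by 0.13, 0.30 and 0.08 in the 3 comparisons, and under the other scalings by 0.05 to 0.20, 0.22 to 0.38 and 0.04 to 0.09. In size, the median of the absolute log2 ratios was 0.42, 0.33 and 0.53 for the members and 0.44, 0.43 and 0.46 for all genes. If the G2KO and G2WT labels were exchanged, the value for the members between the WT arrays would be 0.22 in place of 0.53. Of the 8 members, 2 (Ezh1 and Suz12) were above 0 for DKO against its WT, and the lowest were Rnf2, Eed and Bmi1.

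**Figure D2:**
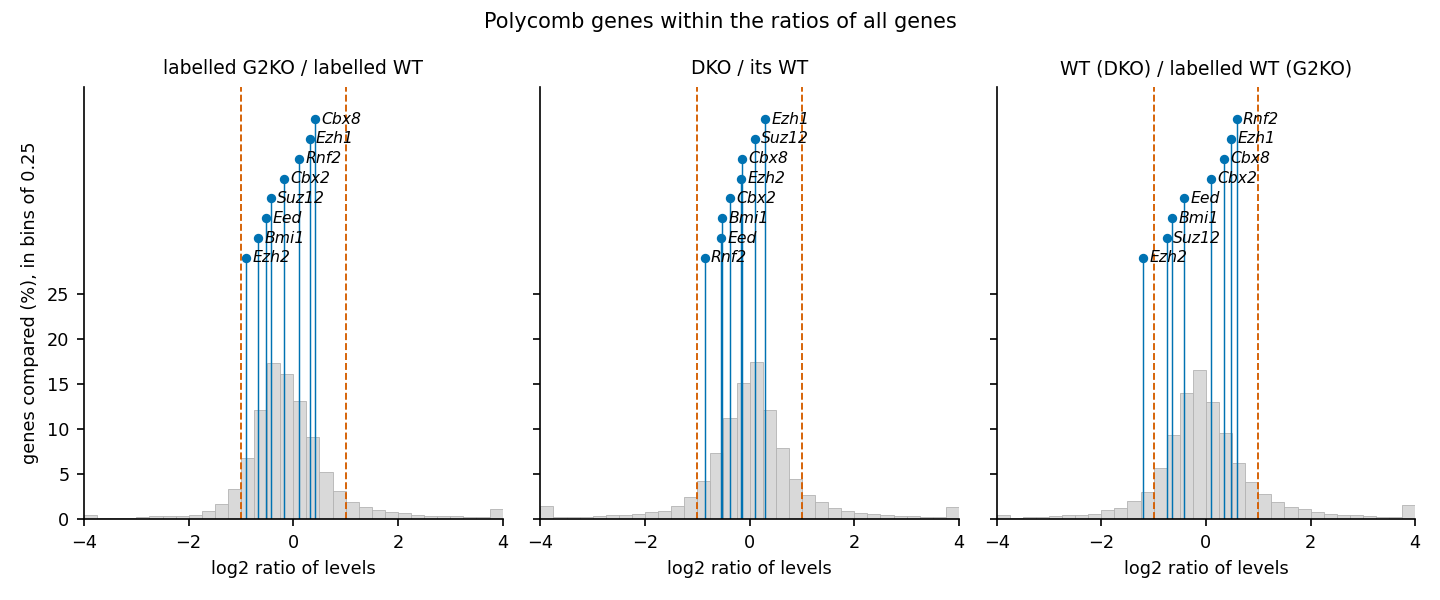
Share of genes (%) by log2 ratio in bins of 0.25 for each of the 3 comparisons (grey; the outermost bins hold all genes beyond) with the 8 measured members as blue lines whose height has no meaning. The dashed lines mark 2-fold, which Ezh2 passes between the WT arrays and no member passes in either knockout comparison.

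When all pairs of arrays were compared, the members lay closest on the G2KO-labelled and DKO-WT arrays, with a median absolute log2 difference of 0.22 and at most 0.47 for Rnf2. They lay farthest apart on the G2WT-labelled and DKO arrays, with a median of 0.72 and a log2 difference of 1.37 for Ezh2. The same holds for 19466 genes well above background on all arrays, with medians of 0.26 and 0.49. Over the 4 arrays the members ranged by 1.76-fold in the median, beside 1.74-fold for these genes.

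Profiles over the 4 arrays were compared by the distance between log2 levels after each gene was centred on its mean, a description over 4 arrays of 1 slide that share their scaling. Among the members the closest pair was Eed and Bmi1, of different complexes, at a distance of 0.19, and the farthest was Ezh1 and Ezh2 at 1.60. Of 19466 genes, those closest to Ezh2 were 2610029K11Rik (0.03), Det1 (0.06) and Hdgf (0.08). Closest to Bmi1 were Zeb1, a repressor of epithelial genes (0.02), Gm7936 and Coq5 (0.05 each), and closest to Eed were 2700078K21Rik (0.04), Mdc1 and Pias2 (0.05 each). Such profiles were common, since 49 genes lay within 0.2 of Ezh2, 139 of Bmi1 and 207 of Eed.

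The other subunits of the complexes were taken from 6 lists that hold 45 genes on the array, 36 of them not among the members. Of these 36, 9 of 36 compared differed at least 2-fold between DKO and its WT (2 higher and 7 lower), which is 25% beside 20.3% of all genes. In the G2KO comparison 3 of 35 did (1 higher and 2 lower; 8.57% beside 17.1%) and between the WT arrays 5 of 36 (2 higher and 3 lower; 13.9% beside 21.6%). Their median log2 ratios were -0.05 for the G2KO comparison (0.02 with quantile normalization and 0.45 without scaling), -0.23 for DKO and -0.09 for the WT arrays (0.15 without scaling).

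Among the PRC2 core genes, which add the histone-binding proteins Rbbp4 and Rbbp7 to the 4 members, 0 of 6 passed 2-fold in the knockout comparisons (1 of 6, Rbbp4, for G2KO with scaling to the array median). Rbbp4 came nearest, at 5.22 on the G2KO-labelled array and 10.2 on the G2WT-labelled array (log2 ratio of -0.96), and Rbbp7 had log2 ratios of -0.02, 0.04 and -0.13 in the 3 comparisons. The accessory subunits of PRC2 steer it to its targets. Phf19, a Polycomb-like protein that recruits PRC2, was at 0.0737 on the DKO array and 0.289 on its WT, a log2 ratio of -1.97, and 0.798 and 0.656 on the G2KO-labelled and G2WT-labelled arrays. Epop, listed in the files as E130012A19Rik, was highest on the G2WT-labelled array at 1.97, with 0.984 on the G2KO-labelled, 0.635 on the DKO-WT and 0.279 on the DKO array, and was 2.01-fold lower in the G2KO comparison (a log2 ratio of -0.51 without scaling), with log2 ratios of -1.19 and -1.64 in the DKO and WT comparisons. Aebp2, a zinc finger cofactor, went the other way, at 2.06 on the DKO array against 0.954 on its WT (1.11 on the log2 scale). In all, 1 of 7 accessory subunits was at least 2-fold higher and 3 of 7 at least 2-fold lower for DKO, beside 10.6% and 9.61% of all genes. The third of the lower ones was Ezhip (AU022751), an inhibitor of PRC2. It was at 0.0221 on the DKO-WT array and dim on the other 3 (a limit of -0.11 with normexp background correction).

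Of the 8 RING and PCGF subunits of PRC1, Pcgf5 passed 2-fold, at 1.67 on the DKO array and 3.60 on its WT (-1.11), and Ring1, the second ubiquitin ligase, stood at 0.425 and 0.219 (0.96), opposite in sign to Rnf2. Of 4 measured CBX readers none passed 2-fold in any comparison. Among the 8 PHC and SCM subunits, Phc1, which lets PRC1 form chains, was at 0.60 on the DKO array and 0.234 on its WT (1.36), and Scml2 was at 0.0863 on the G2KO-labelled and 0.205 on the G2WT-labelled array (-1.25, and -0.76 without scaling). Of 11 variant PRC1 subunits, 3 were at least 2-fold lower for DKO, beside 9.61% of all genes. Auts2, at 0.512 on the DKO-WT array, fell into the background of the DKO array and was at least 70.1-fold lower there (a log2 limit of -6.13, and between -6.58 and -3.62 under the other scalings and background correction); the DNA-binding subunits E2f6 and Mga had log2 ratios of -1.59 and -1.15. Mga was 1.27 higher on the G2KO-labelled than on the G2WT-labelled array and 1.57 higher on the DKO-WT array. All 3 belong to PRC1 complexes that lack these CBX readers.

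**Figure D3:**
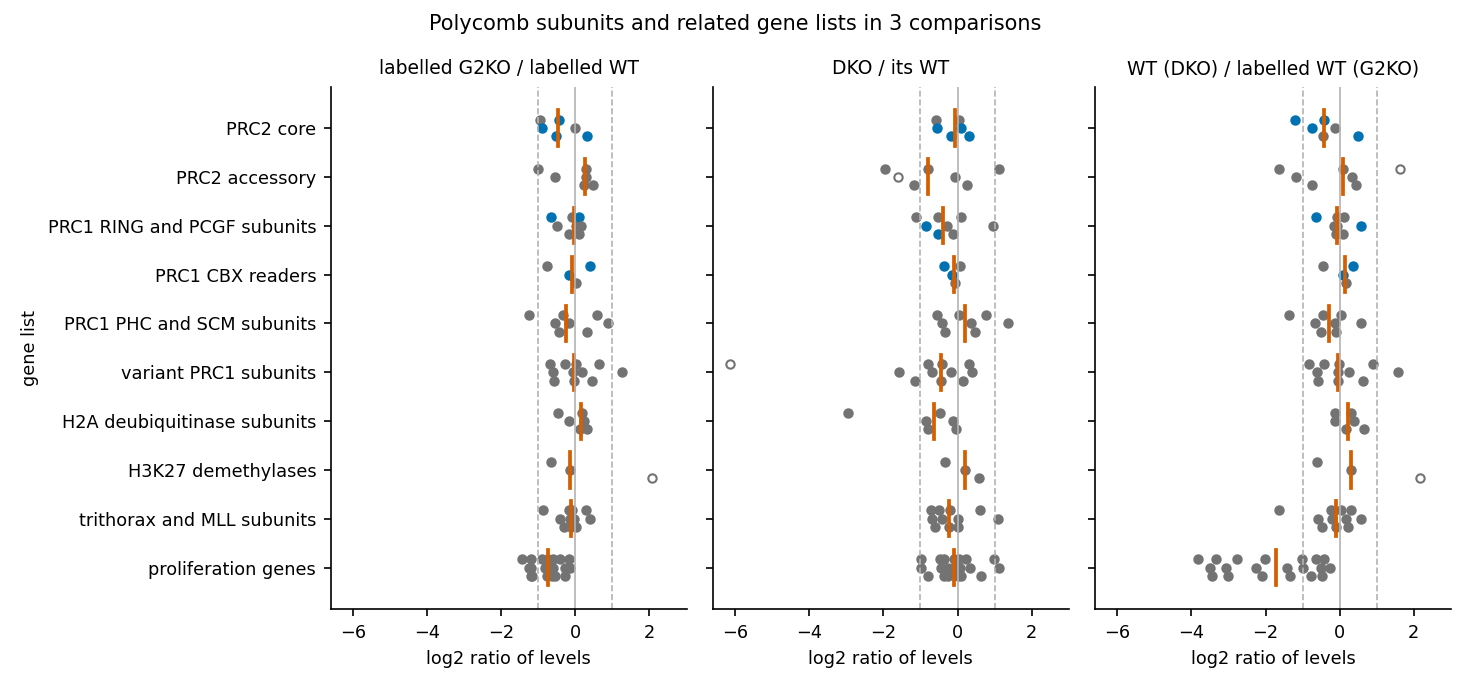
Log2 ratio of every compared gene (points; blue for members, grey for others, open where the ratio is a limit against a dim array) by list in the 3 comparisons, with the median of each list in orange and 2-fold as dashed lines. Variant PRC1 and PRC2 accessory genes spread to lower values in the DKO panel, while the proliferation genes lie to the left in the G2KO and WT panels.

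Enzymes that act against Polycomb marks were measured beside them. Of 6 subunits of the H2A deubiquitinases, which remove the mark of PRC1, 1 was at least 2-fold lower on the DKO array than on its WT, Asxl3 at 0.0323 against 0.249 (a log2 ratio of -2.95, and -3.03 to -1.91 under the other scalings and background correction). The log2 ratios of all 6 ran from -2.95 to -0.04 with a median of -0.63, beside 0.03 for all genes, and those of Bap1 (-0.04) and Asxl1 (-0.11) were smaller than the software's error of about 0.20. Of 3 histone H3 demethylases, Kdm6a and Kdm6b stayed within 2-fold in every comparison; the Y-linked Uty was dim on the G2WT-labelled array and above background on the other 3, while Xist, the X-linked RNA that silences a female X chromosome, was above background on the G2WT-labelled array only. Of 11 trithorax and MLL subunits, which place the opposing activating mark, Mll2 (Kmt2d) was higher on the DKO array (1.09; 0.88 with normexp background correction) and Dpy30 was lower on the DKO-WT than on the G2WT-labelled array (-1.65). The median of this list was -0.11 in the G2KO comparison (0.38 without scaling), -0.23 for DKO and -0.11 between the WT arrays (0.14 without scaling).

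Genes of proliferation were set beside Ezh2. All 20 of 20 listed genes of DNA replication and mitosis had their highest level on the G2WT-labelled array at the scaling used. Without scaling every ratio of the G2KO comparison rises, that of Ezh2 from -0.90 to -0.40. The smaller ones, such as those of Mcm5 (-0.16) and Tyms (-0.13), would then turn positive. The summed level of all 20 genes is set mostly by the brightest probes. It was 238 on the G2WT-labelled, 150 on the G2KO-labelled, 94.7 on the DKO-WT and 68.7 on the DKO array, in the same order as Ezh2. Between the last pair the genes were split, with 11 of 20 lowest on the DKO and 9 of 20 lowest on the DKO-WT array. Their median log2 ratio was -0.73 in the G2KO comparison, -0.09 for DKO against its WT and -1.72 between the WT arrays, where Ezh2 had -0.90, -0.16 and -1.21. Bub1, a mitotic checkpoint kinase, had the largest difference, at 2.95 on the G2WT-labelled and 0.207 on the DKO-WT array. In RNA of whole cultures, fewer cells of a type and less RNA per cell cannot be told apart, and the part of proliferation in the levels of Ezh2 was not tested.

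The cultures also differed in markers of cell type. Of 12 fibroblast markers 12 were above background on the G2KO-labelled, DKO and DKO-WT arrays and 10 on the G2WT-labelled array, where Pdgfra and Lum were dim, and their summed level was 403 to 600.1. Single markers differed far more than the sum. Against the G2WT-labelled array, 6 of 12 were at least 2-fold higher on the G2KO-labelled array, beside 8.74% of all genes (Pdgfra by at least 244-fold, Thy1 by 115-fold, Postn by 19.2-fold). The log2 limit of Pdgfra was 7.93, and 5.28 at its smallest under the other scalings and background correction. That of Lum, another of the 6, was 1.47 and fell to 0.29. On the DKO array 6 of 12 were at least 2-fold lower than on its WT, beside 9.61% of all genes (Postn by 186-fold and Pdgfra by 176-fold). Dcn went the other way there, 16.6-fold higher, and was the only marker at least 2-fold higher. Of 12 mesothelial markers 10 were above background on the DKO array, with a summed level of 149 against 1.12 to 1.59 on the others. Msln alone read 100 on the DKO array and was above background on every array. The defining markers Wt1, Upk1b and Upk3b were dim on the other 3 arrays, and Calb2 was dim on all. Of 11 compared for DKO against its WT, 10 were at least 2-fold higher, beside 10.6% of all genes. Cldn1 was the exception, at 0.441 on the DKO-WT array and dim on the DKO array. Neural progenitor markers summed to 66.3 on the G2WT-labelled array and 3.51 to 16.9 on the others, with Sox2 above background only on the former and Olig2 on none. The part of these differences in the levels of the Polycomb genes was not tested.

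Genes that Polycomb complexes are known to silence were measured on the same arrays. Cdkn2a was at 24.3 on the G2KO-labelled array, 23.3 on the DKO-WT array, 5.09 on the DKO array and 0.0157 on the G2WT-labelled array. Cdkn2b, its neighbour, was at 4.07, 6.31 and 4.03 in the same order and dim on the G2WT-labelled array. The study lists Cdkn2b and Pdgfra as lower in G2KO than in WT MEFs, the reverse of these arrays as labelled. Cdkn2a and Cdkn2b were lowest on the G2WT-labelled array, where, at the scaling used, Bmi1, Ezh2, Eed and Suz12 were highest but Ezh1 and Cbx8 lowest. Without scaling, the log2 ratios of Bmi1 (-0.17), Eed (-0.03) and Suz12 (0.06) in the G2KO comparison were smaller than the software's error. Rnf2 and Cbx2 were highest on the DKO-WT array, Cbx2 within the software's error of the next array. The DKO array had 4.57-fold less Cdkn2a than its WT. Bmi1, Eed, Rnf2, Cbx2 and Ezh2 were lowest on the DKO array, Ezh2 and Cbx2 within the software's error of the array next above. Of 39 Hox genes, 27 were above background on the DKO array and 8, 8 and 11 on the G2KO-labelled, DKO-WT and G2WT-labelled arrays. For DKO against its WT, 19 of 26 Hox genes compared were at least 2-fold higher (16 of 27 with normexp background correction) and 0 lower, beside 10.6% and 9.61% of all genes. The median ratio or lower limit was 7.84 on the log2 scale in the Hoxb, 2.70 in the Hoxa, 0.52 in the Hoxc and 2.43 in the Hoxd cluster. The 8 measured members ranged over log2 ratios of -0.86 to 0.30 on the same arrays. In the G2KO and WT comparisons 11 of 39 Hox genes had a ratio, and 7 of those 11 stayed within 2-fold in each. Whether the levels of the Polycomb genes and of these targets are linked was not tested; the arrays differed in the proliferation and cell type markers given above as well.

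**Figure D4:**
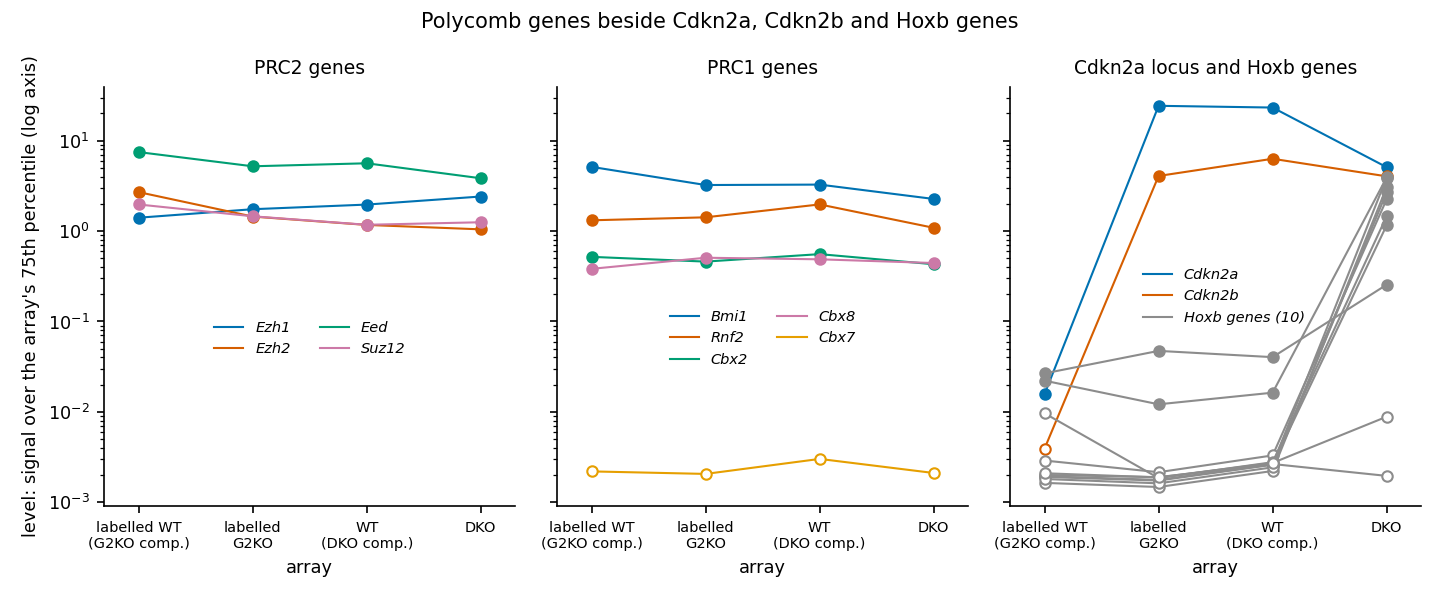
Level (signal over the array's 75th percentile, log axis) on each of the 4 arrays for the PRC2 members, the PRC1 members, and Cdkn2a, Cdkn2b and 10 Hoxb genes; open points are not well above background, and lines only join the points of a gene. By their main probes all measured members stay within 2.58-fold over the arrays, whereas Cdkn2a spans 0.0157 to 24.3.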

How the data were processed

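Per the file headers, the deposited intensities are background-subtracted, spatially detrended signals of Agilent Feature Extraction 10.7.3.1 (10.5.1.1 in the submitters' processing notes), not scaled between arrays. The series table deposited by the authors held the same values. Probe names and genes are those of the files. The members and the lists were chosen with earlier results of these data known.

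Each signal was divided by the 75th percentile of the array's non-control spots. Outlier-flagged spots (107 to 140 per array) were left out and spots of a probe averaged. A gene with several probes was represented by the probe with the highest mean log2 level. Probes well above background on at least 1 array of a comparison were compared; a dim signal was replaced by that array's lowest detected signal or kept if brighter, and the ratio is then a limit. No probe was saturated. Lists are described by counts past 2-fold and medians. Where a summed level is given, the brightest probes weigh most in it. The genes named from a list are a selection and not always those with its largest ratios. The software's relative error was taken for each signal and combined in quadrature. The ratios were tested on simulated data. With 1 array per group, the number of arrays limits the precision, and no leave-one-out or test was possible. Python 3.11.15, numpy 2.4.6, pandas 2.3.3 and, for normexp, limma 3.58.1 in R 4.3.3 were used. Alternatives were normexp on the mean and background signals (offset 50), quantile normalization, median scaling, no scaling, other filters, all probes of a gene, thresholds of 1.5-fold and 4-fold, and other WT arrays.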

Additional observations from a re-analysis of the deposited data

How the results depend on the processing

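The count of 0 members past 2-fold held for the G2KO-labelled against the G2WT-labelled array under every background correction, scaling, filter and WT array tried, and for DKO under all of them but 1. With the G2WT-labelled array as its control, the DKO array had 2 members past 2-fold, Ezh2 (-1.37) and Bmi1 (-1.18). The count of 1 member between the WT arrays, Ezh2, was 0 without scaling (-0.96). At a threshold of 1.5-fold the counts were 2, 1 and 3 members in the G2KO, DKO and WT comparisons, and at 4-fold 0 in each. The medians of the members moved by less than 1.5-fold under every alternative, although that of the G2KO comparison turned from -0.30 to 0.19 without scaling and that of the WT comparison from -0.16 to 0.09 without scaling and 0.10 without a filter. Of 200 ratios of single members under an alternative, 8 moved by more, all with another WT array, among them Suz12 at 0.31 and Ezh2 at 0.31 for the G2KO-labelled against the DKO-WT array; Ezh2, the member past 2-fold, kept its sign between the WT arrays. No paired analysis was possible because each group has 1 array. Signals near background, Cbx7 above all, allow no ratio.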

Other observations

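Endothelial, macrophage and smooth muscle markers were measured as those of other embryonic cell types. Of 5 endothelial markers 2 to 3 were above background per array, with Emcn on none, and of 5 macrophage markers 4 to 5 were, with Ptprc at 0.0188 to 0.0368. Cd14 was at 2.88 on the DKO array and 0.348 on its WT. Smooth muscle markers summed to 42.6 on the DKO array and 214 to 362 on the others, a sum set mainly by Acta2 and Tagln. Tagln was at 11.6 on the DKO array and 132 on its WT, and Acta2 at 29.6 and 133. The other markers were not lower there. Cnn1 was at 1.41 and 1.25, and Myh11 and Des were above background on the DKO array and dim on its WT. In all, 5 of 5 were above background on the DKO array and 3 on its WT.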
